A study of Mus musculus with 9 samples.

Results

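Kdr, Flt1, Flt4, Tie1, Eng and Robo4 encode cell-surface receptors and a co-receptor of blood-vessel and lymphatic endothelium. They were taken by gene name from 2 tables of raw RNA-seq counts, where 6 of 6 were among the 237 genes of one table and 5 of 6, all but Flt1, among the 194 genes of the other. All RNA was from the mPFC, the medial prefrontal cortex, of the C57BL/6 strain. There were 3 libraries each of an insoluble fraction at 22 months (M) of age, of tissue overexpressing YTHDF1 and YTHDF2 (labelled YTHDF1+2 OE, here OE), and of RNA recovered with YTHDF2 by RNA immunoprecipitation (RIP). YTHDF1 and YTHDF2 are cytoplasmic proteins that bind RNA carrying N6-methyladenosine (m6A). For the OE and RIP libraries the labels gave no age, for OE no vector, promoter or fraction, and for RIP no input or control antibody. Whether a library was 1 animal or a pool was not given either, so p-values measure only the spread between these libraries, which may be technical.

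Vascular endothelial growth factors act through 3 receptor tyrosine kinases. KDR (VEGFR2) carries the main growth and permeability signal, FLT1 (VEGFR1) binds VEGF-A tightly and limits its access to KDR, and FLT4 (VEGFR3) is the receptor of VEGF-C and VEGF-D in lymphatic vessels and sprouting capillaries. TIE1 is an orphan receptor kinase that modifies angiopoietin signalling through TIE2. Endoglin, the product of Eng, is a co-receptor for BMP9 and TGF-beta ligands beside the kinase ALK1. ROBO4 is an endothelial member of the roundabout family that stabilises the vessel barrier. In adult brain these receptors are known mainly from the endothelium of the vessel wall.

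The tables held selected genes, so totals cover listed genes and are not sequencing depths, which are unknown here. These totals ran from 66812 to 77705 counts in the insoluble libraries and from 80116 to 99369 in the OE libraries over 237 genes, and from 79389 to 83620 in the RIP libraries over 194 genes. Of a list of 25 endothelial markers, 9 were in the OE table, and several that define brain endothelium were at or near 0. Slco1a4, a transporter of the blood-brain barrier, had 0 counts in each insoluble library and 0, 1 and 0 in OE. The vessel-wall protein gene Mmrn2 had 0 counts in each insoluble library and 0, 1 and 1 in OE. Pecam1, which encodes an endothelial adhesion molecule, had 1, 1 and 3 counts in the insoluble libraries and 3, 2 and 1 in OE. Cldn5, the main tight-junction claudin of brain endothelium, had 7, 8 and 6 counts in the insoluble libraries. The other 5 of the 9 were counted in those libraries, Cd93 at 548 to 675, Ushbp1 at 818 to 922, Cdh5 at 81 to 111, Vwf at 55 to 83 and Pltp at 36 to 48 counts. Endothelial Nos3 and Ptprb had 1525 to 1740 and 4200 to 5007. The markers were thus split, with 4 of 9 at or near 0, and the 6 genes are called receptor genes by name only. Whether each count stands beside its own gene name was not tested for the insoluble and OE libraries either. No listed gene was among the neuron, astrocyte, oligodendrocyte, microglia, fibroblast, lymphatic or erythroid marker lists used, so the tissue label was not checked. Ythdf1 and Ythdf2 were not analysed here, so neither was the overexpression.

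A further limit holds for the RIP values. The direction of the fold change in the authors' deposited RIP table is not stated, and for the receptors it did not follow the counts of the same rows. In the authors' deposited table the 5 receptors had fold changes from 0.766 (Flt4) to 0.962 (Eng), all below 1. The ratios of mean raw RIP to insoluble counts in the same rows were 0.777 for Kdr and 0.858 for Flt4 but 1.46 for Eng, 6.31 for Tie1 and 10.9 for Robo4. Whichever way that column runs, it went against the counts of at least 2 receptors, so it gives no check that each RIP count stands beside its own gene name.

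YTHDF2 binds m6A, which is often placed within the sequence GGACT, so the coding sequences of the 2 receptors that stood farthest apart in RIP, Robo4 (higher) and Kdr (lower), are shown where they hold it. Each line is the sense strand, 5′ to 3′, from the GENCODE M21 transcripts (GRCm38, the assembly also called mm10, which the submitters' processing notes name), with GGACT in capitals and 10 bases on each side; each lies inside 1 coding exon.
Robo4 exon 3, chr9:37403152-37403176, plus strand: tcctccaggaGGACTtccagatcca
Robo4 exon 6, chr9:37404329-37404353, plus strand: gctctgttcaGGACTcagaggtccc
Robo4 exon 11, chr9:37408363-37408387, plus strand: cagccgcaggGGACTctgttcccca
Robo4 exon 15, chr9:37411411-37411435, plus strand: aacctgctcaGGACTggcagacatg
Kdr exon 3, chr5:75972426-75972450, minus strand: agcgggacctGGACTggctttggcc
Kdr exon 7, chr5:75966464-75966488, minus strand: ccctttcctgGGACTgtggcgaaga
Kdr exon 21, chr5:75948861-75948885, minus strand: gccagggcaaGGACTacgttgggga
Kdr exon 22, chr5:75946883-75946907, minus strand: aactgtacaaGGACTtcctgacctt
Kdr exon 26, chr5:75943511-75943535, minus strand: agaccatgctGGACTgctggcatga
Kdr exon 27, chr5:75941887-75941911, minus strand: agaggattctGGACTctccctgcct
Kdr exon 30, chr5:75934480-75934504, minus strand: cgacgaggcaGGACTtttaaagatg

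Kdr, the lower of the pair in RIP, held 7 occurrences of GGACT in 4035 coding bases, or 1.73 per kb. Robo4, the higher, held 4 in 3222 coding bases, or 1.24 per kb. Flt4, also lower in RIP, held 3 (0.734 per kb), Flt1 7 (1.75 per kb), Eng 2 (1.02 per kb) and Tie1 2 (0.588 per kb). Whether density goes with the RIP values was not tested. Searched on the sense strand alone, GGACT was present at least once in the longest coding sequence of 126 of 159 listed protein-coding genes (79.2%), with a median of 1.2 per kb. Untranslated regions were not searched, so these densities do not describe whole transcripts. A match to these letters is not a methylated site, and no m6A was measured in these libraries.

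In GENCODE M21 on GRCm38 all 6 genes were annotated as protein-coding. Kdr (ENSMUSG00000062960) and Flt1 (ENSMUSG00000029648) lie on the minus strand of chromosome 5, from 75932827 to 75978458 and from 147561604 to 147726011. Flt4 (ENSMUSG00000020357) lies on the plus strand of chromosome 11 from 49609263 to 49652739. Tie1 (ENSMUSG00000033191) lies on the minus strand of chromosome 4 from 118471191 to 118490061. Eng (ENSMUSG00000026814) is on the plus strand of chromosome 2 from 32646595 to 32682669, where Fpgs overlaps it on the opposite strand, so its count is uncertain, since the strand setting of the counting was not given. Robo4 (ENSMUSG00000032125) is on the plus strand of chromosome 9 from 37401897 to 37415115. At least 99.6% of the 50-base words of each receptor's transcripts were found in no transcript of another gene.

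**Figure D1:**
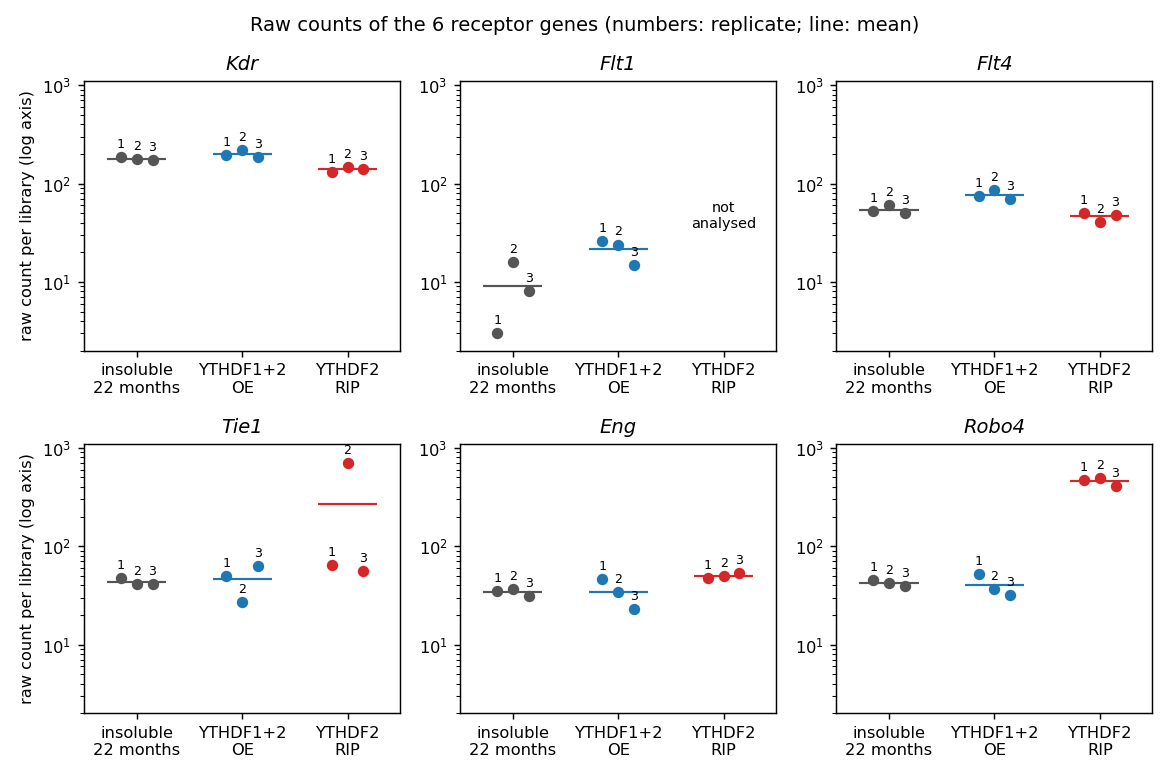
Raw counts on a log axis of the 6 receptor genes in the 3 insoluble, 3 OE and 3 RIP libraries, with each point 1 library, its number the replicate and the line the group mean. Robo4 stands at 410 to 494 counts in RIP against 32 to 52 in the other 6 libraries, and Tie1 has 1 RIP library, replicate 2, at 693.

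The insoluble fraction and OE were set side by side first. Flt1 was higher in OE by the main test, and the other 5 receptors did not pass it. The fit used edgeR's quasi-likelihood test with TMM scaling, and p-values were adjusted by Benjamini-Hochberg over the 195 genes tested. All 6 receptors passed the filter on low counts. At an adjusted p under 0.05, 1 of them, Flt1, was called higher in OE and 0 were called lower, against 39.5% of all genes tested called, 21.0% higher and 18.5% lower. The receptors' median log2 fold change was -0.09, beside -0.01 over all genes tested.

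Of the VEGF receptors, Kdr had 185, 179 and 174 counts in the insoluble libraries and 197, 220 and 186 in OE. After scaling the groups overlapped, at 195.4 ± 9.88 and 187.1 ± 19.1 normalised counts (SD, n = 3 each), which are raw counts divided by each library's TMM-scaled size relative to the mean. The log2 fold change of Kdr was -0.06 ± 0.10 (SE; edgeR adjusted p = 0.641).

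Flt1, the decoy-like receptor for VEGF-A, was thinly counted, with 3, 16 and 8 counts in the insoluble libraries and 26, 24 and 15 in OE. The lowest OE library lay below the highest insoluble library, so the groups overlapped. The exact 95% Poisson interval of the insoluble replicate 1 count was 0.619 to 8.77, which did not reach the 9.15 to 26.0 of replicate 2; such intervals cover counting error only. Flt1 averaged 9.91 ± 7.10 normalised counts in the insoluble fraction and 19.8 ± 3.60 in OE (SD, n = 3 each), a log2 fold change of 1.02 ± 0.39 (SE; edgeR adjusted p = 0.0267), the second highest of the 195 genes tested. This call was lost in DESeq2 (log2 fold change 1.009, adjusted p = 0.107), and without insoluble replicate 1 the log2 fold change was 0.57 (edgeR adjusted p = 0.269) while without insoluble replicate 2 it was 1.73 (0.0206). With edgeR it was also lost, at a log2 fold change close to that over all libraries, without insoluble replicate 3 (1.02, adjusted p = 0.0946) and without OE replicate 1 (0.95, 0.134) or 2 (0.95, 0.141).

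Flt4, the VEGF-C receptor, had 52, 60 and 50 counts in the insoluble libraries and 75, 85 and 70 in OE. All 3 OE counts were above all 3 insoluble counts as sequenced, but not after scaling, where the means were 58.8 ± 6.01 and 71.3 ± 7.60 (SD, n = 3 each). Its log2 fold change was 0.28 ± 0.17 (SE; edgeR adjusted p = 0.208).

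Of the other receptors, Tie1 had 47, 41 and 41 counts in the insoluble libraries and 50, 27 and 63 in OE. Its OE libraries lay on both sides of the insoluble ones, with a log2 fold change of -0.11 ± 0.21 (SE; edgeR adjusted p = 0.711). Eng had 35, 37 and 31 counts in the insoluble libraries and 46, 34 and 23 in OE, with a log2 fold change of -0.23 ± 0.23 (SE; edgeR adjusted p = 0.436). Robo4 had 45, 42 and 39 counts in the insoluble libraries and 52, 37 and 32 in OE. Scaled, Robo4 was lower in each OE library than in any insoluble library, at 37.0 ± 5.79 against 45.7 ± 0.531 normalised counts (SD, n = 3 each), yet its log2 fold change of -0.29 ± 0.21 (SE) did not pass the test (edgeR adjusted p = 0.281). Robo4 was the 1 of 6 receptors whose scaled groups did not overlap, and 49.2% of all genes tested showed such a separation.

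The direction of the OE fold change in the authors' deposited table is not stated either. For all 6 receptors it lay on the same side of 1 as the fitted insoluble level over the OE level, and it is read that way here. In the authors' deposited table Flt1 had 0.507 (unadjusted p = 0.0800), Kdr 1.07 (0.50), Flt4 0.844 (0.312), Tie1 1.09 (0.712), Eng 1.21 (0.401) and Robo4 1.26 (0.269). None of the 6 receptors had a deposited p-value under 0.05.

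Ratios between receptors within a library do not depend on the scaling. The ratio of Kdr to Flt4 raw counts was 3.56, 2.98 and 3.48 in the insoluble libraries and 2.63, 2.59 and 2.66 in OE. The OE ratios were all below the insoluble ones and close to each other. With 3 libraries against 3 the exact two-sided permutation test cannot give a p below 0.1, and that was its value here (Benjamini-Hochberg adjusted 0.3 over 15 pairs). Of the 15 receptor pairs, 5 had ratios that did not overlap between OE and insoluble, against 46.7% of all pairs of genes tested. Flt1 or Flt4 was a member of each of the 5, but also of most of the 15 pairs, so nothing is read from this.

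**Figure D2:**
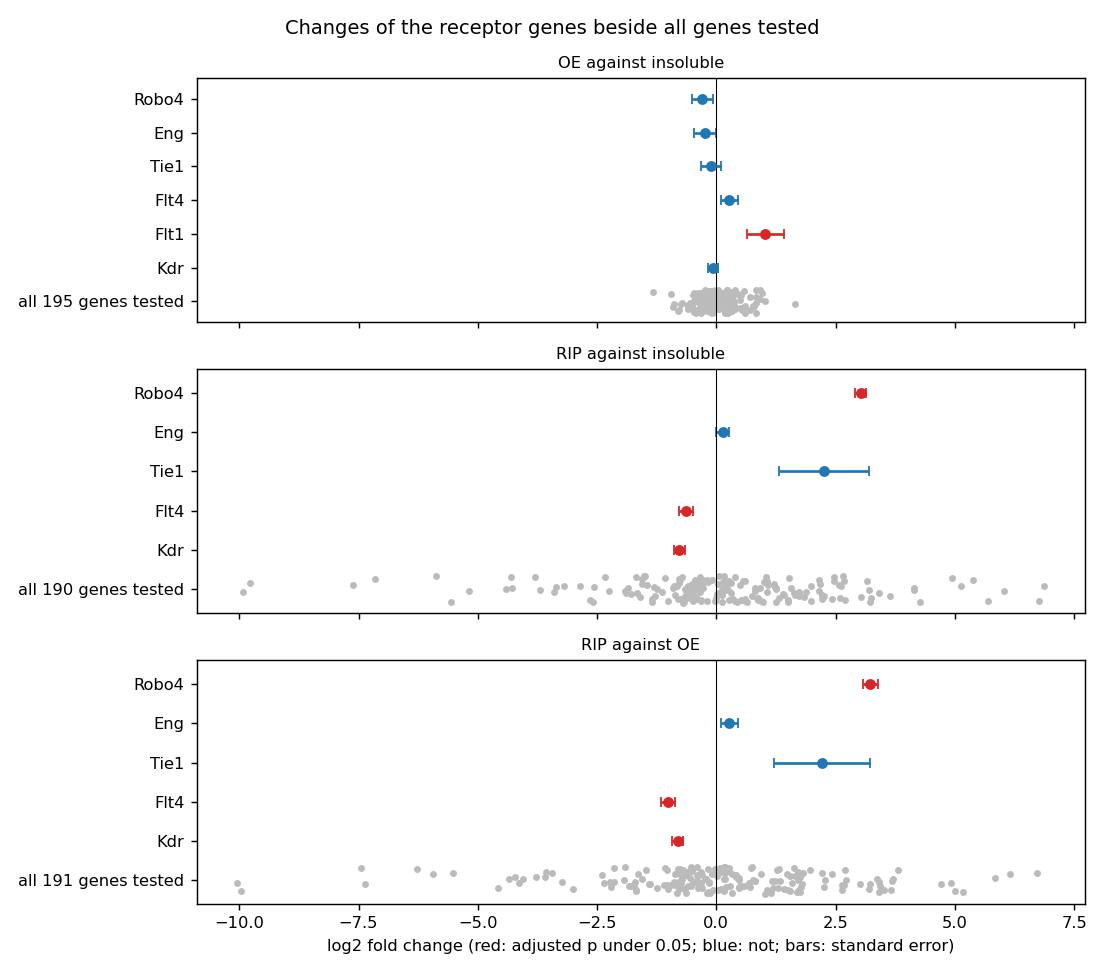
Log2 fold changes with standard errors of the receptor genes in 3 comparisons, from the edgeR fits, above grey points for all genes tested. In OE the receptors lie between -0.29 and 1.02, and in both RIP panels Robo4 lies at or above 3.03 while Kdr and Flt4 lie below 0.

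YTHDF2 RIP was next set against the insoluble fraction. With no input or control antibody, recovery with YTHDF2 cannot be told apart here from differences in fraction or age. The receptor genes diverged: Robo4 rose 8.18-fold, Kdr and Flt4 fell to 0.584 and 0.646 of the insoluble level, Eng did not pass the test, and Tie1 was high in 1 library. The same edgeR fit was run over 190 genes. Of the 5 receptors tested, 1 was called higher and 2 lower, against 85.3% of all genes tested called in either direction, 40.5% higher and 44.7% lower, so 3 of 5 called is no more than the background. The receptors' median log2 fold change was 0.13, beside 0.03 over all genes tested. Scaling alone moved that median: it was -0.32 with upper-quartile scaling and 0.14 with listed-gene totals, and directions in RIP are relative to this shift.

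Robo4, the barrier-stabilising roundabout receptor, had 45, 42 and 39 counts in the insoluble libraries and 467, 494 and 410 in RIP. Every RIP count was several times every insoluble count, and the 3 RIP libraries were close to one another. It rose from a mean of 48.9 ± 0.493 normalised counts to one of 400.7 ± 40.1 (SD, n = 3 each), a log2 fold change of 3.03 ± 0.12 (SE; edgeR adjusted p = 4.24e-08). Its log2 fold change ranked 17 from the highest among the 190 genes. In the authors' deposited table Robo4 had a fold change of 0.915, of unstated direction (unadjusted p = 0.307).

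Kdr had 185, 179 and 174 counts in the insoluble libraries and 131, 148 and 139 in RIP. The groups did not overlap before or after scaling, as for 87.9% of all genes tested after scaling. Its normalised count averaged 209.3 ± 10.5 in the insoluble fraction and 122.2 ± 9.70 in RIP (SD, n = 3 each). It fell with a log2 fold change of -0.77 ± 0.11 (SE; edgeR adjusted p = 0.000195). In the authors' deposited table Kdr had 0.939 (unadjusted p = 0.298), a fold change of unstated direction.

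Flt4 had 52, 60 and 50 counts in the insoluble libraries and 50, 41 and 48 in RIP. These raw counts meet at 50, with a ratio of RIP to insoluble means of 0.858, and the groups separate only after scaling. The size of the fall rests on that scaling: with listed-gene totals the log2 fold change was -0.51 (edgeR adjusted p = 0.0113). Normalised counts fell from 63.0 ± 6.57 to 40.6 ± 3.49 (SD, n = 3 each), a log2 fold change of -0.63 ± 0.14 (SE; edgeR adjusted p = 0.00317). Flt4 was the 1 receptor with a p-value under 0.05 in the authors' deposited table, at a fold change of 0.766 (unadjusted p = 0.00327). As the direction of that column is not stated, this value may run with or against the fitted fall.

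The Kdr to Flt4 ratio was 2.62, 3.61 and 2.90 in RIP against 3.56, 2.98 and 3.48 in the insoluble libraries, and these overlapped (exact permutation p = 0.5, adjusted 0.556 over 10 pairs). The Robo4 to Kdr ratio, in contrast, was 0.243, 0.235 and 0.224 in the insoluble libraries and 3.56, 3.34 and 2.95 in RIP. It turned from about 1 Robo4 read to 4 Kdr reads into an excess of Robo4 in each RIP library (exact permutation p = 0.1, the smallest possible, adjusted 0.143 over 10 pairs). Of the 10 receptor pairs 7 did not overlap, against 85.3% of all pairs of genes tested.

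Eng, the BMP9 co-receptor, had 35, 37 and 31 counts in the insoluble libraries and 47, 50 and 53 in RIP. Raw counts were higher in each RIP library, but scaled values overlapped, at 39.99 ± 2.52 and 43.9 ± 3.16 (SD, n = 3 each). Its log2 fold change was 0.13 ± 0.14 (SE; edgeR adjusted p = 0.496), and upper-quartile scaling turned it to -0.21 (0.264).

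Tie1 had 47, 41 and 41 counts in the insoluble libraries and 65, 693 and 56 in RIP. RIP replicate 2 held 11.5 times the mean of the other RIP counts, with an exact 95% Poisson interval of 642.4 to 746.6, far from the 50.2 to 82.8 of replicate 1. The log2 fold change over all libraries was 2.26 ± 0.95 (SE; edgeR adjusted p = 0.0504). Without RIP replicate 2 it was 0.09 ± 0.16 (SE; edgeR adjusted p = 0.659), whereas without RIP replicate 1 or 3 it was 2.74 (0.0127) or 2.75 (0.0110) and called. DESeq2 gave Tie1 no adjusted p. A count at least 5 times off both other libraries of its group, where those were within a factor of 2, was found in 3 of 168 genes of RIP, in 0 of 161 of the insoluble fraction and in 0 of 165 of OE. The other 2 genes were both low in the library that stood apart: Snhg11, with 47 counts in RIP replicate 1, and Fis1, with 76 in RIP replicate 2. These 2 genes are named because they were the remaining cases, chosen after their values were seen. The cause of the Tie1 value was not tested.

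**Figure D3:**
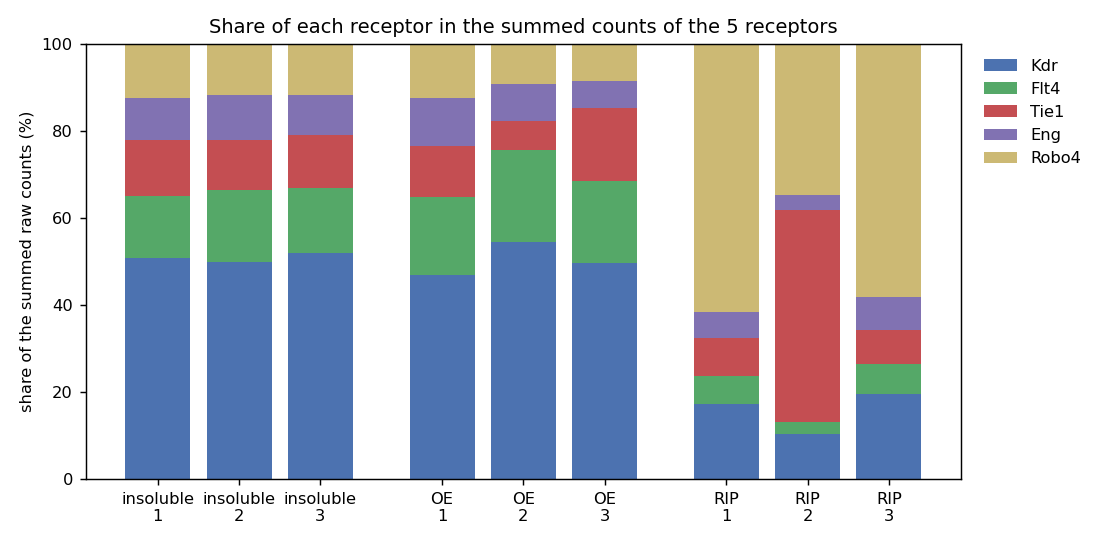
Share in percent of each of 5 receptors in their summed raw counts, with 1 stacked bar per library. Kdr makes up 46.9% to 54.6% of the sum in the insoluble and OE libraries and Robo4 61.4% and 58.1% in RIP replicates 1 and 3, while Tie1 takes 48.6% in RIP replicate 2.

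The make-up of the receptor set does not depend on scaling. Kdr made up 50.9% ± 1.04 of the summed counts of the 5 receptors in the insoluble fraction, 50.4% ± 3.89 in OE and 15.8% ± 4.83 in RIP (SD, n = 3 each). Robo4 made up 11.9% ± 0.401, 10.04% ± 2.05 and 51.4% ± 14.6. With Tie1 left out of the sum, Robo4 made up 67.2%, 67.4% and 63.1% in RIP against 13.2% to 14.2% in the insoluble libraries and 9.84% to 14.1% in OE. Flt4 made up 15.3% ± 1.26 in the insoluble fraction and 19.2% ± 1.68 in OE, where the groups did not overlap, and 5.42% ± 2.2 in RIP. The exact two-sided permutation p was 0.1 for Kdr, Flt4, Eng and Robo4 in RIP against insoluble and 1 for Tie1 (n = 3 each), and 0.1 is the smallest value this design allows. These shares sum to 100%, so a higher share of 1 receptor lowers the others. As a share of all listed counts, the log2 ratio of RIP to insoluble was 0.25 for Eng, against -0.76 within the receptor sum, and -0.66 for Kdr, against -1.69. For the shares within the receptor sum in OE against insoluble, the exact two-sided permutation p was 0.1 for Flt4 and from 0.4 to 0.8 for the other 4.

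RIP was also set against OE, over 191 of the genes shared by both tables. The groups share no library, but each has also been compared above with the same insoluble libraries. Robo4 rose 9.39-fold in RIP over OE (log2 fold change 3.23 ± 0.15 SE; edgeR adjusted p = 7.19e-07). Kdr had a log2 fold change of -0.81 ± 0.12 (SE; edgeR adjusted p = 0.000359) and Flt4 one of -1.004 ± 0.15 (SE; edgeR adjusted p = 0.000399). Tie1 was at 2.22 ± 1.008 (SE; edgeR adjusted p = 0.0730) and at 0.09 (0.820) without RIP replicate 2, but called without RIP replicate 1 (2.69, 0.0217) or 3 (2.71, 0.0314). Eng was at 0.27 ± 0.18 (SE; edgeR adjusted p = 0.191), and it was called with listed-gene totals (log2 fold change 0.57, edgeR adjusted p = 0.0228) and without OE replicate 1 (0.46, 0.0477). With 1 receptor called higher and 2 lower, the count stood beside 81.7% of all genes tested, 37.7% higher and 44.0% lower. Scaled counts of Robo4, Kdr and Flt4 did not overlap between RIP and OE, as for 84.8% of all genes tested. Ratios of 7 of 10 receptor pairs did not overlap, against 85.8% of all pairs of genes.

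Levels were compared between receptors per kb of exon, using the merged exons of GENCODE M21. In the insoluble fraction Kdr was highest at 21.6 ± 1.09 normalised counts per kb, followed by Tie1 at 9.51 ± 0.476, Eng at 9.22 ± 0.560, Robo4 at 8.61 ± 0.10, Flt4 at 7.15 ± 0.730 and Flt1 at 0.734 ± 0.526 (SD, n = 3 each). The ranges of Tie1 and Eng overlapped, those of Eng and Robo4 nearly met, at 8.74 and 8.72, and Kdr and Flt1 stood clear at the 2 ends. In OE the order was Kdr at 20.7 ± 2.11, Tie1 at 8.99 ± 4.2, Flt4 at 8.67 ± 0.923, Eng at 7.73 ± 1.81, Robo4 at 6.98 ± 1.09 and Flt1 at 1.47 ± 0.267 (SD, n = 3 each). The 4 in the middle overlapped one another there. In RIP, on a scale set over all 9 libraries, Robo4 was highest at 75.2 ± 6.73 normalised counts per kb, Kdr was at 13.5 ± 0.927, Eng at 10.8 ± 0.767 and Flt4 at 4.91 ± 0.479 (SD, n = 3 each). Tie1 was at 11.4 and 10.03 in RIP replicates 1 and 3 and at 123.3 in replicate 2, so it has no single place in that order. On the same scale Robo4 in the insoluble libraries was at 9.24 ± 0.0976 per kb.

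**Figure D4:**
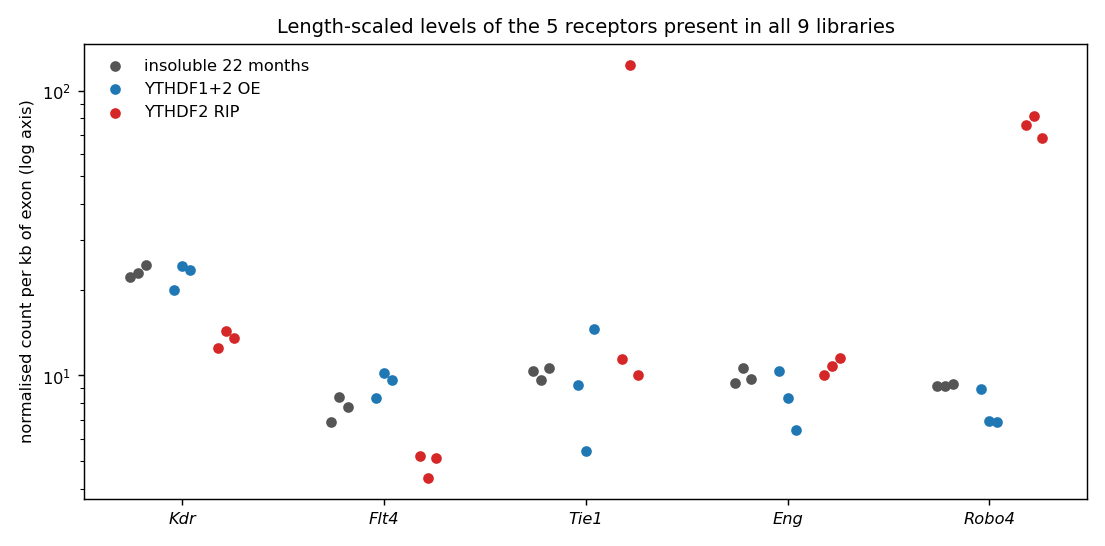
Normalised counts per kb of exon on a log axis of the 5 receptors listed in both tables, scaled over all 9 libraries, with each point 1 library. Kdr is the highest of the 5 in each insoluble and OE library, and Robo4, at 68.1 to 81.5 in RIP, is above Kdr there in every library.

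A list of 63 partner genes of the receptors, in VEGF, angiopoietin-TIE, endoglin-BMP and SLIT-ROBO signalling and downstream of them, had 8 members in the OE table and 7 in the RIP table. Of the 6 tested in OE against insoluble, 2 fell and 4 did not pass the test, with a median log2 fold change of 0.00. Over all genes tested 39.5% were called and 18.5% were lower, and nothing particular to the list is read from its count. Ptprb encodes VE-PTP, a phosphatase that acts on TIE2 and VE-cadherin. It had 5007, 4621 and 4200 counts in the insoluble libraries and 4444, 4067 and 3376 in OE. The scaled groups did not overlap, and it fell by 0.45 ± 0.03 on the log2 scale (SE; edgeR adjusted p = 3.94e-26). Notch4, an endothelial Notch receptor, fell by 0.30 ± 0.10 (SE; edgeR adjusted p = 0.00696). Nos3, the endothelial nitric oxide synthase that acts downstream of KDR, had a log2 fold change of 0.06 (edgeR adjusted p = 0.236). Hspg2 (perlecan) was at 0.28 (0.0610), the Notch ligand gene Dll4 at -0.06 (0.655) and Cdh5, which encodes VE-cadherin, at 0.08 (0.668).

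In RIP against insoluble, 4 of the 6 tested pathway genes fell and 2 did not pass the test, with a median log2 fold change of -0.44. With 85.3% of all genes tested called, 4 of 6 called in either direction is no more than the background. By direction, 4 were lower and 0 higher, against 44.7% lower and 40.5% higher of all genes tested. With 6 genes, nothing particular to the list is read from this. Cdh5 had a log2 fold change of -0.71 (edgeR adjusted p = 0.00267), Ptprb -0.53 (0.000378), Notch4 -0.50 (0.000829) and Nos3 -0.38 (6.06e-05). Dll4 was at 0.21 (0.0657) and Hspg2 at 0.21 (0.262). None of the 6 was near Robo4 in size. Acvrl1, which encodes ALK1, the kinase partner of endoglin, was too thinly counted to be tested, with 6, 6 and 5 counts in the insoluble libraries, 11, 4 and 2 in OE and 7, 7 and 6 in RIP. The ligand genes, Tek (TIE2) and the neuropilins were not analysed here.

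Summed over the 9 endothelial markers, the share of all listed counts was 2.32% to 2.41% in the insoluble libraries and 1.71% to 1.73% in OE. The groups did not overlap, but most of the sum was Cd93 and Ushbp1, at 675 and 922 of 1821 counts in insoluble replicate 1. Of 5 markers tested, Cd93 (log2 fold change -0.74, edgeR adjusted p = 8.96e-18) and Ushbp1 (-0.30, 4.39e-06) were lower and Pltp higher (0.76, 0.000182). Cdh5 (0.08, 0.668) and Vwf (-0.02, 0.918) did not pass. Over all genes tested 39.5% were called. The 6 receptors together took 0.472% to 0.515% in the insoluble libraries and 0.449% to 0.486% in OE. In the RIP table the 6 endothelial markers took 2.51% to 2.60% in the insoluble libraries and 2.40% to 2.63% in RIP, which overlapped. There Pltp rose (1.63, 0.000102) while Cdh5 and Ushbp1 fell (-0.71, 0.00267, and -0.50, 1.37e-05). Myh11, a smooth-muscle marker of the vessel wall, rose in both comparisons, by a log2 fold change of 0.50 in OE (edgeR adjusted p = 0.0243) and 1.73 in RIP (6.62e-06). The other mural marker of the OE table, the smooth-muscle actin gene Acta2, had 0 counts in each insoluble library and 1, 0 and 1 in OE. In tissue RNA a change in the number of cells of a type and a change in RNA per cell cannot be told apart. Neither can be told apart here from differences in fraction, age or recovery with YTHDF2. The labels gave no age for OE and RIP and no fraction for OE. The part of these markers in the receptor results was not tested.

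Likeness of pattern was described by Pearson's r of log2 TMM-scaled counts over the 6 insoluble and OE libraries, which share their scaling, with the 191 other genes of at least 10 counts on average. Eng was most like Robo4 (r = 0.867), and these were the only 2 receptors of which one was among the 2 genes most like the other. Robo4 itself was most like Atcayos (0.941) and Cyyr1 (0.895). Kdr was most like Tbx3 (0.958), Flt1 like Gm23935 (0.919), Flt4 like mt-Nd3 (0.949) and Tie1 like Pglyrp1 (0.975). Flt4 and Robo4 ran against each other (r = -0.871). Over all 9 libraries, where the RIP group sets most of the spread, Robo4 was most like C1ql2 (0.995), Kdr like Aanat (0.989) and Flt4 like Cyp3a13 (0.958). Each named gene was picked as most alike among 191 others over 6 libraries, or 186 over 9. With so few libraries high values of either sign are easily reached, so no relation between genes is read from them.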

How the data were processed

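Raw counts per gene and library were deposited by the authors, named as such per the file headers, beside a mean signal, a fold (linear ratio) and a p-value with no adjustment; the deposited mean signal was not used. The submitters' processing notes name Bowtie2 2.2.3, HISAT2 2.1.0, HTSeq 0.6.0 and mm10; the annotation, strand setting and criterion for listing genes are not given in the sources used here. Blank rows (724 of 961 in the OE table) were left out, and no column of per-sample values was unused.

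Each comparison was fitted on its own 6 libraries with edgeR 4.0.16 under R 4.3.3: filterByExpr (minimum count 10, minimum total 15), TMM over listed genes, glmQLFit and glmQLFTest, and Benjamini-Hochberg over all genes tested, called under 0.05. The SE is the log2 fold change divided by the square root of the quasi-likelihood F. For some receptors, among them Eng, Robo4 and Flt4 in RIP against insoluble, it is smaller than counting error alone would give. Those SEs overstate precision. The procedure was tested on simulated data in which most genes did not change. That setting does not cover the RIP comparisons, where most genes were called. DESeq2 1.42.0, other scalings, no filter, a replicate block and leaving out each library were alternatives. Permutation tests used scipy 1.17.1.

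Replicate pairs differed beyond counting noise, least between insoluble replicates 2 and 3 (chi-square per degree of freedom 1.17, p = 0.0457) and most between RIP replicates 1 and 2 (12.8). Same-numbered libraries did not deviate together (correlations from -0.228 to 0.0921), so the numbers were not taken as pairs. Of 237 identifiers 236 matched GENCODE M21. The receptors are named by rule, with a fixed pathway list and the 2 genes most like each receptor. Receptors and lists were chosen with earlier results of these data known.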

Additional observations from a re-analysis of the deposited data

How the results depend on the processing

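Numbers of called genes stayed within 1.5 times in each alternative run. OE against insoluble had 77 called genes and from 53 in DESeq2 to 78 with no filter or listed-gene totals, RIP against insoluble 162 and from 156 to 165, and RIP against OE 156 and from 151 to 162. With listed-gene totals the split was 31 higher and 47 lower in OE, against 41 and 36, and 88 and 67 in RIP against OE, against 72 and 84. With each library left out in turn there were 55 to 75, 156 to 165 and 152 to 157 called genes. With the replicate block the counts were 73, 160 and 151. The block ended the Flt1 call in OE (log2 fold change 1.03, adjusted p = 0.0813) and changed no other receptor's call.

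Robo4, Kdr and Flt4 kept direction and call in all 11 alternatives of both RIP comparisons. Robo4 ran from 2.68 to 3.14 against insoluble and from 3.01 to 3.53 against OE on the log2 scale. Flt1 lost its call in 6 of 11. Tie1 was called in RIP against insoluble with listed-gene totals (adjusted p = 0.0474). Eng turned to -0.21 in RIP against insoluble with upper-quartile scaling. In OE, Kdr ran from -0.12 to 0.025 and Tie1 from -0.47 to 0.18 with each library left out in turn, Kdr turning without OE replicate 1 and Tie1 without OE replicate 2.

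The log2 ratio of shares moved when all listed counts replaced the receptor sum, since the receptor sum was itself a changing share of the listed counts. The 5 receptors together took 0.507% to 0.544% of the counts of the 194 genes in the insoluble libraries and 0.889% to 1.71% in RIP. This rise was not shared by all 5 receptors. Robo4 went from 39 to 45 raw counts in the insoluble libraries to 410 to 494 in RIP, and Tie1 held 693 in RIP replicate 2. Kdr had fewer raw counts in each RIP library, at 131 to 148 against 174 to 185. Why these counts differed was not tested. In OE the log2 ratio of shares of all listed counts was -0.15 for Kdr and 0.19 for Flt4, against -0.01 and 0.33. In RIP against insoluble it was -0.66 for Kdr, -0.52 for Flt4, 2.34 for Tie1, 0.25 for Eng and 3.15 for Robo4, against -1.69, -1.50, 0.83, -0.76 and 2.11. In RIP against OE it was -0.51, -0.71, 2.51, 0.59 and 3.54 in the same order, against -1.68, -1.83, 0.88, -0.57 and 2.36, so that Eng reversed in both. Leaving out each library, Tie1 ran from -0.56 to 1.23 against insoluble and from -0.52 to 1.27 against OE, the lowest without RIP replicate 2. Depth is unknown, and Flt1 had only 3 to 26 counts.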
